A study of Mus musculus with 32 samples.

Results

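The genes described here encode cholesterol synthesis and the control of sterol level, storage and transport in mouse cells. They were taken by name: 36 names were listed, of which 34 are rows of the 13780-gene table. The other 2 names, Msmo1 and Sc5dl, are alternative names of the listed Sc4mol and Sc5d, so every gene of the list was measured. All 34 genes passed the filter on low values in every comparison, namely at least 1 TPM (a gene's share of all transcripts, corrected for gene length) in at least 4 libraries.

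RNA was sequenced from 32 libraries of C57/BL6 mice, 4 in each of 8 groups. Adult males either received implants under the skin that held 25 mg testosterone and 2.5 mg oestrogen and were kept 2 weeks (T+E2), or were left untreated as controls. Libraries were made from the prostatic urethra and from 2 prostate regions, the anterior lobe (AP) and the dorsal lateral lobe (DLP). The urogenital sinus (UGS), the embryonic tissue that gives rise to the prostate, came from male embryos at stage E16.5 and was cultured either with testosterone, for 6 days, or without hormone. The culture time of the arm without hormone is not given in the labels, so testosterone and any difference in culture time cannot be told apart. All groups share the strain, and the labels name no engineered allele in any group. The implants reach the whole animal, and the ages of the adults are not given in the labels. The labels do not say that each library came from a separate animal, so the p-values measure the spread between libraries.

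Cells build cholesterol from acetyl-CoA in 2 stretches: the mevalonate pathway makes farnesyl diphosphate, and squalene synthase then commits that product to squalene, which is cyclised and trimmed to cholesterol. When membrane sterol falls, Scap escorts the SREBP transcription factors (Srebf1, Srebf2) from the endoplasmic reticulum to the Golgi, the proteases S1P and S2P (Mbtps1, Mbtps2) release them, and the genes of synthesis are switched on. The Insig proteins hold Scap back when sterol is plentiful, oxysterols activate the liver X receptors, which raise the efflux pumps Abca1 and Abcg1, and surplus cholesterol is esterified by Soat1 for storage. Prostate epithelium is known for active lipid synthesis that responds to androgen.

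Values in each group are given in the order of the library numbers in the sample titles. These are 6, 7, 8 and 9 for AP control, 2, 3, 17 and 18 for AP T+E2, 7, 8, 9 and 10 for DLP control and 1, 2, 18 and 24 for DLP T+E2. They are 6, 7, 8 and 10 for urethra control, 1, 2, 3 and 4 for urethra T+E2, A, C, D and H for UGS without hormone and B, C, G and H for UGS with testosterone. Fold changes are log2 differences of TPM + 1 with their standard errors (limma, 4 against 4 libraries). A gene is said to have risen or fallen where the Benjamini-Hochberg adjusted p over all tested genes was under 0.05. Read numbers cannot be recovered from TPM, so counting error is not given and the depth is unknown.

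Transcripts of seminal vesicle and skeletal muscle marker genes were abundant in some tissues, and their source was not tested. The summed TPM of 9 seminal vesicle marker genes ran from 172417 to 236641 in DLP control and from 152496 to 266516 in DLP T+E2, and in the AP it was 99213 and 72188 in T+E2 libraries 17 and 18, 54218 in control library 9 and at most 2094 in the others. The summed TPM of 10 skeletal muscle markers ran from 44318 to 52429.6 in urethra control and from 55193 to 73616 in urethra T+E2, without overlap. In the DLP it reached 2417 and 2600 in T+E2 libraries 18 and 24 and at most 898 in the controls. The summed level of 9 luminal epithelial markers was 3976 ± 264 TPM in AP control, 2407 ± 208 in DLP control, 1214 ± 66.6 in urethra control and 1839.7 ± 216 in UGS without hormone (SD, n = 4). In bulk tissue, fewer cells of a type and less RNA per cell cannot be told apart.

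Of the 20 cholesterol synthesis enzymes, 13 rose and 1 fell with T+E2 in the AP and 6 rose in the DLP, beside the larger share of all genes called in the AP. Squalene synthase (Fdft1) and the cholesterol esterifying enzyme Soat1 rose by far the most. In the AP 18 of the 34 genes rose and 4 fell, where 34.5% of the 12525 tested genes were called (21.6% higher, 12.9% lower). In the DLP 9 rose and 1 fell, where 10.7% of 13108 genes were called (6.09% higher, 4.63% lower). In the urethra none rose and only Fdps, which makes farnesyl diphosphate, fell, against a background of 0.362% of 12985 genes called (0.2% higher, 0.162% lower). In the cultured UGS no member was called in limma's test, where 1.73% of 13304 genes were (1.43% higher, 0.301% lower), and 7 members had an unadjusted p under 0.05. Libraries of the compared groups did not overlap for 15 higher and 3 lower members in the AP (34.4% of all genes), 14 higher and 1 lower in the DLP (16.3%), 15 lower in the urethra (8.1%) and 1 higher, Mbtps2, in the UGS (10.8%). The median log2 fold change of the 34 genes was 0.31 in the AP, 0.21 in the DLP, -0.27 in the urethra and 0.10 in the UGS, beside 0.07, 0.02, -0.04 and 0.17 for all tested genes.

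**Figure D1:**
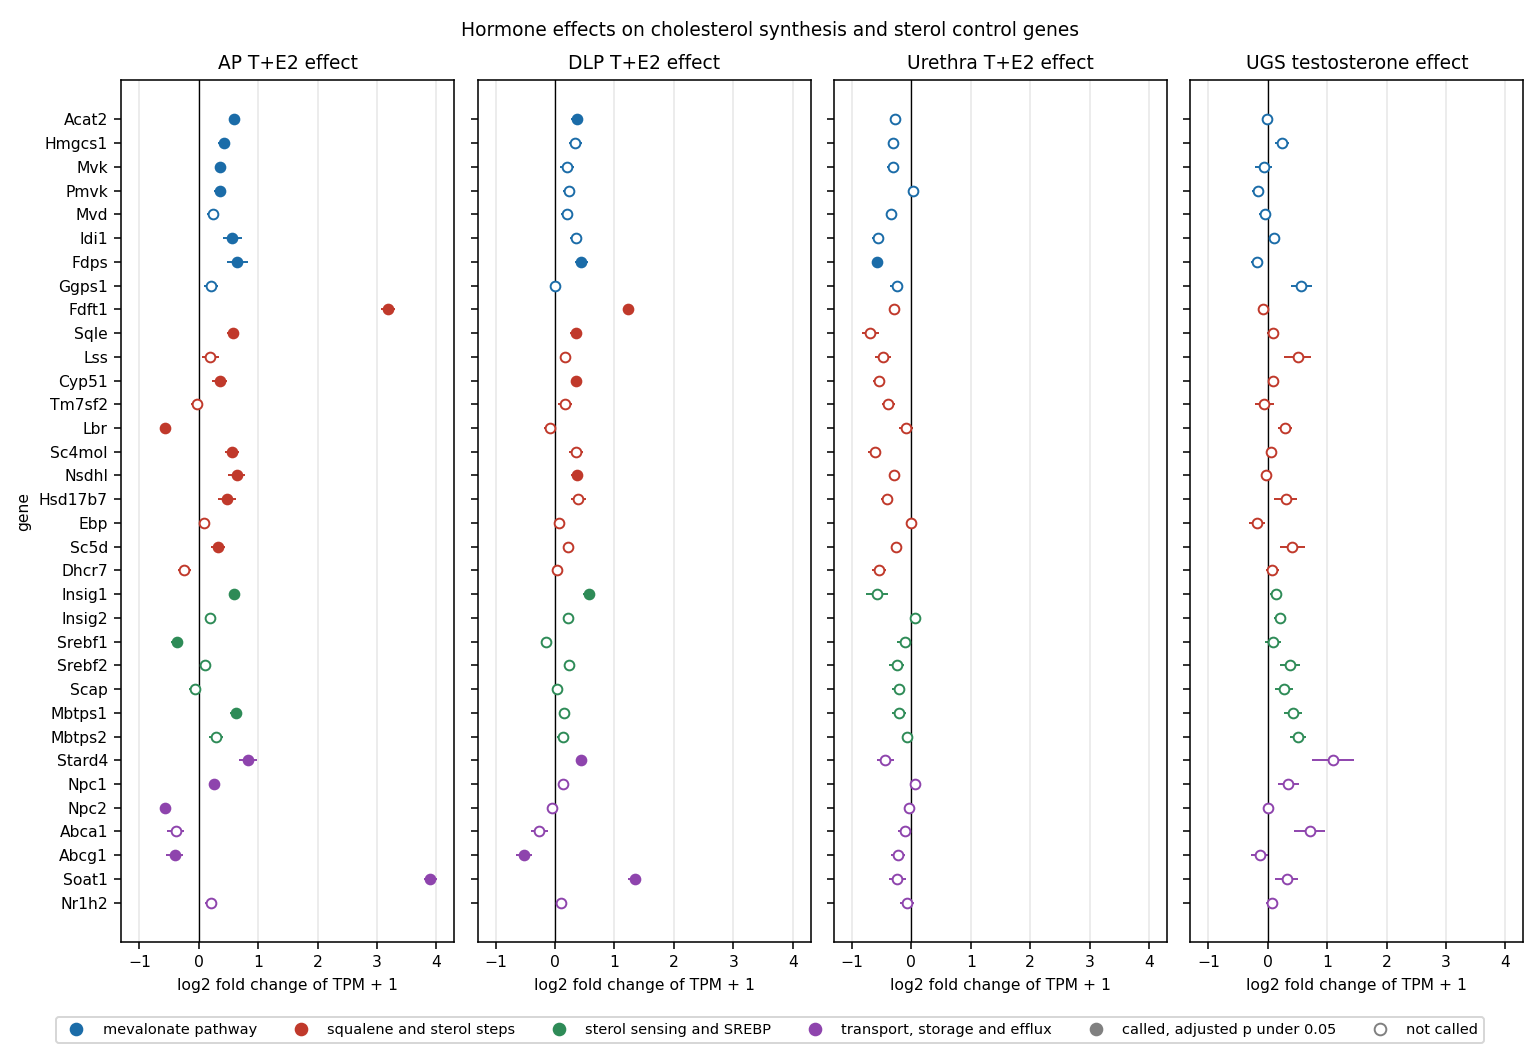
Log2 fold changes of TPM + 1 with hormone for the 34 genes, in pathway order and coloured by role, in the 4 comparisons of 4 against 4 libraries; bars are standard errors and filled points have an adjusted p under 0.05. Fdft1 and Soat1 stand far to the right in AP (3.19 and 3.90) and DLP (1.22 and 1.34), most other AP points lie between 0.2 and 0.7, and nearly all urethra points lie left of 0.

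The mevalonate enzymes turn acetyl-CoA into the isoprenoid farnesyl diphosphate. Of the 8 genes, 6 rose in the AP, 2 in the DLP and none in the UGS, while Fdps fell in the urethra. Hmgcs1, which makes HMG-CoA, the starting compound of the pathway, measured 27.7, 28.9, 29.5 and 31.6 TPM in AP control and 36.1, 35.1, 47.4 and 41.6 TPM in AP T+E2. Every T+E2 library was above every control, and Hmgcs1 rose by 0.42 ± 0.10 (adjusted p = 0.00699). The DLP values were 26.7, 34.7, 34.5 and 31.6 TPM in control and 43.4, 37.6, 34.5 and 47.7 TPM with T+E2. These groups overlapped by a single pair of libraries, and the difference of 0.34 ± 0.11 was not called (adjusted p = 0.0867).

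Fdps, farnesyl diphosphate synthase, was the only one of the 34 genes called in all 3 adult tissues. It measured 71.8, 87.5, 81.4 and 111 TPM in AP control and 128, 103, 184 and 144 TPM in AP T+E2. T+E2 library 3 lay below control library 9, so the groups overlapped, and the rise was 0.65 ± 0.17 (adjusted p = 0.0149). The DLP libraries measured 53.1, 59.2, 74.02 and 63.6 TPM without and 76.4, 78.4, 88.9 and 96.7 TPM with T+E2. All DLP T+E2 libraries were above the controls, and Fdps rose by 0.44 ± 0.11 (adjusted p = 0.0279). In the urethra it went from 101, 99.8, 91.6 and 104 TPM in control to 71.5, 73.8, 63.5 and 57.4 TPM with T+E2. Here every treated library lay below every control, and the change was -0.57 ± 0.09 (adjusted p = 0.0353).

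The remaining mevalonate genes moved by less than 1 on the log2 scale. Acat2, the cytosolic acetoacetyl-CoA thiolase that supplies the pathway, rose by 0.60 ± 0.08 in the AP and 0.37 ± 0.10 in the DLP (adjusted p = 3.11e-04 and 0.0444). In the AP the kinases Mvk and Pmvk, which phosphorylate mevalonate in turn, rose by 0.36 ± 0.08 and 0.36 ± 0.09, and Idi1, the isopentenyl diphosphate isomerase, by 0.56 ± 0.16. Mvd, the decarboxylase, and Ggps1, which diverts farnesyl diphosphate to geranylgeranyl diphosphate, were not called in either lobe, at 0.23 and 0.20 in the AP.

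The step from farnesyl diphosphate into sterols showed the largest change among the 20 synthesis enzymes. Fdft1, squalene synthase, measured 22.1, 27.4, 21.3 and 33.1 TPM in AP control and 241, 234, 258 and 232 TPM in AP T+E2. The lowest treated library was far above the highest control, the ratio of means was 9.30, and the rise of 3.19 ± 0.12 (adjusted p = 2.62e-08) ranked 76 among 12525 genes. In the DLP it measured 29.6, 31.9, 34.6 and 34.2 TPM in control and 76.8, 74.2, 79.1 and 78.9 TPM with T+E2. The groups again stood wholly apart, the ratio of means was 2.37, and the rise of 1.22 ± 0.07 (adjusted p = 2.83e-06) ranked 184 of 13108. In the urethra Fdft1 measured 31.2, 34.4, 31.8 and 33.9 TPM in control and 27.3, 28.1, 24.7 and 26.5 TPM with T+E2, lower in every treated library, and this difference of -0.29 ± 0.06 was not called (adjusted p = 0.111).

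Fdft1 rose out of proportion to the other enzymes. It made up 5.14% ± 0.68 of the summed TPM of the 20 synthesis enzymes in AP control and 27.8% ± 1.61 with T+E2 (SD, n = 4). In the DLP its share was 7.82% ± 0.307 in control and 14.2% ± 0.412 with T+E2, and in the urethra it was 6.45% ± 0.302 and 6.89% ± 0.641. The summed level of the 20 enzymes was 501 ± 45.3 TPM in AP control and 873 ± 90.8 TPM in AP T+E2, and without Fdft1 it was 475 ± 40.4 and 632 ± 79.98 TPM. The corresponding DLP sums of the 20 were 417 ± 40.3 and 545 ± 25.6 TPM, and the urethral sums were 509 ± 24.7 and 389 ± 28.4 TPM. The library ranges of these 20-enzyme sums did not overlap between treated and control in any of the 3 tissues, with the treated libraries higher in both lobes and lower in the urethra.

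**Figure D2:**
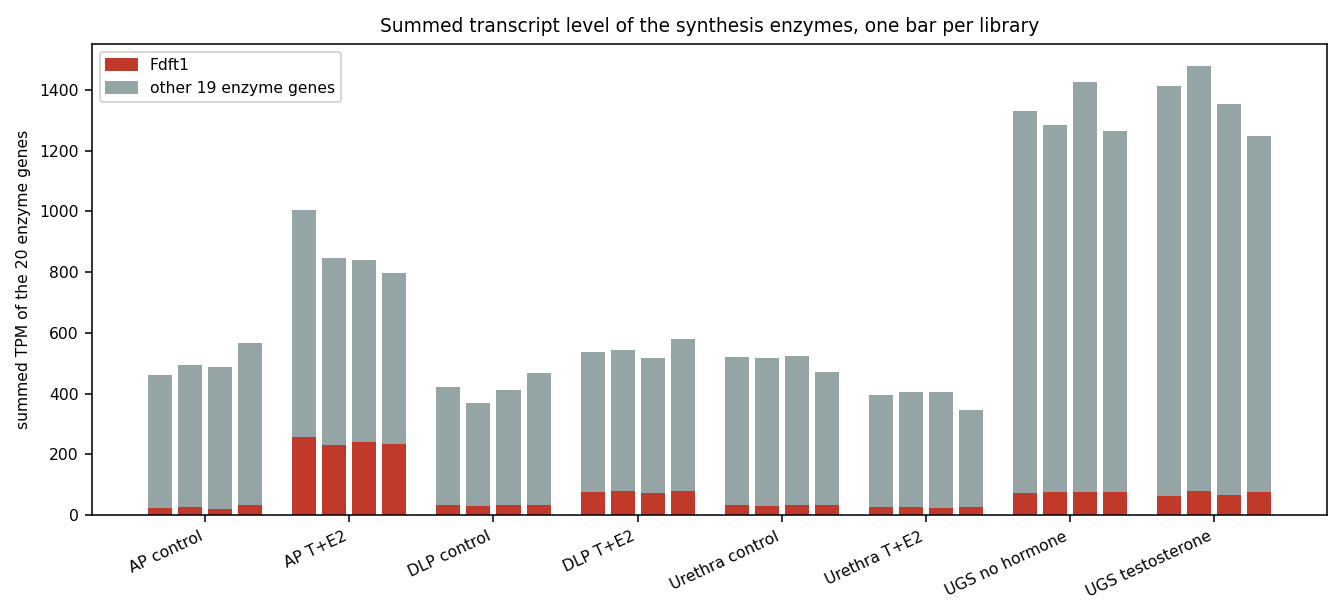
Summed TPM of the 20 synthesis enzyme genes in each of the 32 libraries, with the part contributed by Fdft1 in red; libraries of a group stand side by side. The red part takes 27.8% of the bar on average in AP T+E2 and 5.14% in AP control, and the tallest bars are those of the UGS groups.

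The oxidative and trimming steps follow squalene synthase. Of the 12 genes from squalene synthase onward, 7 rose and 1 fell in the AP, and 4 rose in the DLP. Sqle, the squalene epoxidase and a rate-limiting step of sterol synthesis, measured 23.5, 25.3, 24.2 and 29.4 TPM in AP control and 36.7, 36.7, 44.4 and 36.3 TPM in AP T+E2. All treated libraries were above the controls, with a rise of 0.57 ± 0.09 (adjusted p = 8.99e-04). Its DLP values were 17.7, 18.5, 24.4 and 21.5 TPM in control and 24.9, 27.2, 25.9 and 26.6 TPM with T+E2. The gap between the DLP groups was narrow, and the rise was 0.34 ± 0.10 (adjusted p = 0.0479). In the urethra Sqle measured 20.4, 21.8, 17.2 and 22.6 TPM in control and 12.7, 14.6, 13.9 and 8.75 TPM with T+E2. Each treated urethra was below each control, and this most negative urethral fold change among the 34 genes, -0.69 ± 0.15, was not called (adjusted p = 0.0989).

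Cyp51, the lanosterol demethylase, measured 16.3, 18.6, 16.3 and 22.4 TPM in AP control and 21.5, 21.5, 28.8 and 23.1 TPM in AP T+E2. The groups overlapped, and the rise of 0.35 ± 0.12 passed the threshold narrowly (adjusted p = 0.0496). DLP Cyp51 was 11.6, 12.8, 15.1 and 11.9 TPM in control and 15.4, 15.4, 17.5 and 18.6 TPM with T+E2. There the groups did not overlap, and the rise was 0.36 ± 0.10 (adjusted p = 0.0422). Its urethral values were 22.9, 21.3, 16.9 and 19.9 TPM in control and 14.2, 14.1, 13.4 and 12.1 TPM with T+E2. They stood apart in the opposite direction, at -0.55 ± 0.10 (adjusted p = 0.0585).

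Nsdhl and Hsd17b7, which act with Sc4mol to strip methyl groups from the sterol ring, rose in the AP by 0.64 ± 0.14 and 0.48 ± 0.15, and Sc4mol rose by 0.56 ± 0.12. Of these 3, Nsdhl was called in the DLP, by 0.36 ± 0.10 (adjusted p = 0.0425), while Sc4mol and Hsd17b7 had 0.35 and 0.39 (adjusted p = 0.0988 and 0.0657). Sc5d, the desaturase near the end of the pathway, rose by 0.33 ± 0.11 in the AP (adjusted p = 0.0474). Lss, the cyclase that closes the sterol rings, Tm7sf2, a sterol reductase, and Ebp, a sterol isomerase, were not called in the lobes, with AP fold changes of 0.20, -0.02 and 0.09.

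Lbr and Dhcr7 had negative AP fold changes. Lbr, which is both a sterol reductase and a nuclear membrane protein that binds lamin and chromatin, measured 11.99, 11.2, 12.4 and 11.5 TPM in AP control and 7.76, 8.24, 7.26 and 7.39 TPM in AP T+E2. It was lower in every treated library, and the fall was -0.56 ± 0.08 as a signed log2 change (adjusted p = 3.43e-04), and 9 of 9 tested markers of dividing cells fell in the AP too, their summed level going from 67.1 ± 18.5 to 22.4 ± 4.13 TPM over 10 genes. Their part in the Lbr result was not tested. Dhcr7, the reductase of the last step to cholesterol, measured 11.7, 12.7, 13.7 and 13.6 TPM in AP control and 9.96, 9.51, 13.8 and 10.3 TPM in AP T+E2. Treated library 17 lay above all controls and the other treated libraries below them, and the difference was not called (-0.24 ± 0.12, adjusted p = 0.131). The DLP values of Dhcr7 were 7.87, 9.43, 9.62 and 9.27 TPM in control and 9.39, 9.69, 9.52 and 8.49 TPM with T+E2, a difference of 0.03 ± 0.08. In the urethra it measured 24.5, 22.4, 19.6 and 25.2 TPM in control and 16.6, 14.9, 18.3 and 12.3 TPM with T+E2, where the groups did not overlap and the difference of -0.54 ± 0.12 was not called (adjusted p = 0.114).

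Among the 7 genes of sterol sensing and SREBP activation, 2 rose and 1 fell in the AP and 1 rose in the DLP. Insig1, the sterol-dependent anchor of Scap and itself an SREBP target, measured 34.4, 36.3, 34.6 and 42.2 TPM in AP control and 58.9, 53.4, 59.5 and 53.6 TPM in AP T+E2. It rose by 0.60 ± 0.08 without overlap (adjusted p = 2.46e-04). DLP libraries gave 21.4, 22.1, 28.6 and 25.8 TPM in control and 33.2, 37.6, 39.1 and 36.7 TPM with T+E2. This rise of 0.57 ± 0.10 (adjusted p = 0.00396) was near that in the AP, and the difference between the lobes was 0.03 ± 0.20 (adjusted p = 0.950). In the urethra it measured 118, 118, 96.6 and 117 TPM in control and 98.5, 87.4, 70.3 and 50.3 TPM with T+E2. The treated libraries spread widely and 1 of them exceeded the lowest control, and the difference of -0.58 ± 0.18 was not called (adjusted p = 0.196).

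Insig2, the second Scap anchor, measured 24.6, 23.3, 26.2 and 24.4 TPM in AP control and 26.2, 31.5, 28.6 and 26.3 TPM in AP T+E2, with overlapping groups and no call (0.18 ± 0.08, adjusted p = 0.0980). In the DLP it measured 20.2, 24.4, 24.2 and 24.2 TPM in control and 26.1, 26.6, 26.8 and 28.5 TPM with T+E2 (adjusted p = 0.111). Urethral Insig2 was 35.5, 39.5, 37.9 and 41.8 TPM in control and 40.4, 41.9, 40.3 and 39.5 TPM with T+E2. The Insig2 groups were apart in the DLP and overlapped in the urethra.

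With the values as deposited, neither SREBP gene was called higher in any tissue. Srebf1, whose main product acts chiefly on fatty acid genes, measured 47.99, 49.1, 57.8 and 51.9 TPM in AP control and 44.4, 34.5, 44.6 and 36.1 TPM in AP T+E2. All treated AP libraries were below the controls, and the fall was -0.37 ± 0.10 as a signed log2 change (adjusted p = 0.0164). DLP Srebf1 was 38.03, 42.9, 49.4 and 48.9 TPM in control and 39.8, 39.1, 39.7 and 41.3 TPM with T+E2. Urethral Srebf1 was 52.3, 46.96, 44.7 and 50.3 TPM in control and 45.1, 50.2, 52.9 and 33.6 TPM with T+E2. Both tissues showed overlap and no call. Srebf2, the main regulator of cholesterol synthesis genes, measured 40.6, 40.4, 44.4 and 43.1 TPM in AP control and 49.99, 44.3, 48.1 and 39.8 TPM in AP T+E2, which overlapped (0.11 ± 0.08, adjusted p = 0.334). Its DLP values were 28.9, 32.99, 33.3 and 34.7 TPM in control and 39.5, 38.1, 39.1 and 37.02 TPM with T+E2. Those groups were apart, and the difference of 0.24 ± 0.07 missed the threshold as deposited (adjusted p = 0.0539) and was called higher under all 4 other scalings, at 0.21 to 0.25. The urethral Srebf2 values overlapped, at 30.3, 27.8, 26.1 and 27.7 TPM in control and 19.4, 25.6, 29.6 and 20.3 TPM with T+E2.

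Scap, the escort of the SREBPs, measured 32.7, 32.5, 39.8 and 32.8 TPM in AP control and 37.2, 33.7, 30.9 and 29.3 TPM in AP T+E2. DLP Scap was 31.3, 32.2, 30.3 and 33.9 TPM in control and 30.99, 33.6, 37.04 and 28.8 TPM with T+E2. Urethral Scap was 24.7, 21.6, 25.6 and 25.6 TPM in control and 18.9, 21.6, 25.5 and 17.9 TPM with T+E2. No tissue gave a call for Scap, and the groups overlapped in each. Of the SREBP proteases, Mbtps1 rose in the AP by 0.62 ± 0.10 (adjusted p = 0.00108), from 134 ± 10.1 to 208 ± 31.6 TPM (SD, n = 4). Mbtps2, at 0.29 in the AP, was not called in any tissue.

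The promoters of 3 genes are printed because Hmgcs1 alone among the matched members holds the searched sterol element, Insig1 rose by similar amounts in both lobes, and Soat1, described next, had the largest change. They are the 250 bases before the transcript start from RefSeq (GRCm38.p6), read on the strand of the gene, at chr13:119690101-119690350 (plus strand) for Hmgcs1, chr5:28071162-28071411 (plus strand) for Insig1 and chr1:156474329-156474578 (minus strand) for Soat1. Capitals mark matches to TCACNCCAC (a sterol regulatory element core), CCAAT (the NF-Y box) and GGGCGG (the Sp1 box) on either strand.
Hmgcs1: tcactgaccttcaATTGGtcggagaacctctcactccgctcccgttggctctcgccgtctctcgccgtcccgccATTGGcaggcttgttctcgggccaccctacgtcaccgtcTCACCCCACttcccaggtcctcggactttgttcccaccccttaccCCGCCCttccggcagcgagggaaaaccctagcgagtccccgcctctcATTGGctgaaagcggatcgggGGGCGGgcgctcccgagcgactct
Insig1: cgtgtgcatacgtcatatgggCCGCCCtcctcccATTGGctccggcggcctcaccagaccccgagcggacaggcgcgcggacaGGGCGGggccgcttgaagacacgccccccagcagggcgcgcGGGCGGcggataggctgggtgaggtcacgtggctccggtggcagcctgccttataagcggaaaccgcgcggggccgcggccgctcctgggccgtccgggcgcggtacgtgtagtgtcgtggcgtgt
Soat1: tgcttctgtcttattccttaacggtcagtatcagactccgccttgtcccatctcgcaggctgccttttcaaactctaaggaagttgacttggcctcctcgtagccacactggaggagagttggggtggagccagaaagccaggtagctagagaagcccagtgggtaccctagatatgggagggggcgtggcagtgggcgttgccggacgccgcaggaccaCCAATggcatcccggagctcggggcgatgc

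RefSeq promoters, each of 300 bases with 50 after the start, were matched for 28 of the 34 genes and came to 36. TCACNCCAC was in 1 of the 36 (2.78%), that of Hmgcs1 at position -137, and in 1.24% of 32851 RefSeq promoters. CCAAT was in 63.9% of the 36 and 37.4% of all, and GGGCGG in 77.8% of the 36 and 35.7% of all. Among the 12515 promoters of genes in the expression table the shares were 1.13%, 37.3% and 60.9%. These are counts of letters in a window and not measured binding. The genes with no promoter matched were Fdps, Fdft1, Sqle, Stard4, Npc1 and Abcg1.

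Genes of sterol transport, storage and efflux moved in both directions in the AP, with 3 rising and 2 falling of 7. Soat1, which esterifies cholesterol for storage in droplets, measured 2.86, 2.59, 2.88 and 2.73 TPM in AP control and 59.2, 60.4, 59.1 and 43.9 TPM in AP T+E2. The ratio of means was 20.1, and the rise of 3.90 ± 0.11 (adjusted p = 2.87e-09) ranked 47 of 12525 genes. DLP Soat1 was 6.08, 7.15, 4.98 and 6.08 TPM in control and 15.2, 18.9, 18.6 and 14.96 TPM with T+E2. The treated DLP libraries were all above the controls, and the rise of 1.34 ± 0.11 (adjusted p = 4.02e-05) ranked 155 of 13108. In the urethra it measured 2.60, 3.37, 2.63 and 3.60 TPM in control and 1.89, 2.93, 2.89 and 2.07 TPM with T+E2, overlapping and not called (-0.24 ± 0.14, adjusted p = 0.461).

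Stard4, a carrier that moves free cholesterol between membranes, measured 3.75, 4.57, 4.81 and 6.03 TPM in AP control and 10.6, 10.2, 9.83 and 6.70 TPM in AP T+E2. DLP Stard4 was 6.98, 7.77, 7.36 and 8.17 TPM in DLP control and 9.68, 9.69, 11.7 and 11.6 TPM in DLP T+E2. It rose in both lobes without overlap, by 0.83 ± 0.16 and 0.44 ± 0.09 (adjusted p = 0.00219 and 0.0110). The lysosomal pair that exports cholesterol split in the AP. Npc1 rose by 0.26 ± 0.09 (adjusted p = 0.0373), while Npc2 measured 199, 214, 216 and 196 TPM in AP control and 152, 152, 120.0 and 134 TPM in AP T+E2. Every treated AP library had less Npc2 than every control, a signed log2 change of -0.57 ± 0.08 (adjusted p = 4.85e-04). DLP Npc2 overlapped, at 126, 137, 141 and 144 TPM in control and 122, 136, 152 and 120.2 TPM with T+E2.

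Neither efflux pump was called higher in an adult tissue. Abcg1, which exports cholesterol to lipoprotein, measured 1.62, 1.12, 1.70 and 1.51 TPM in AP control and 1.16, 0.520, 1.05 and 0.820 TPM in AP T+E2. DLP Abcg1 was 2.59, 4.28, 3.01 and 3.00 TPM in DLP control and 2.03, 1.68, 1.76 and 2.16 TPM in DLP T+E2. It fell in both lobes, with signed log2 changes of -0.40 ± 0.14 and -0.53 ± 0.14 (adjusted p = 0.0495 and 0.0331), overlapping by 1 treated and 1 control library in the AP and apart in the DLP. Urethral Abcg1 overlapped, at 2.46, 2.96, 2.03 and 2.84 TPM in control and 2.05, 2.03, 2.11 and 1.97 TPM with T+E2. At these low levels the log2(TPM + 1) scale understates a ratio, and the ratio of means was 0.597 in the AP and 0.592 in the DLP.

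Abca1, the pump that loads cholesterol onto apolipoprotein, measured 14.1, 10.9, 16.8 and 10.6 TPM in AP control and 10.8, 9.59, 9.58 and 8.56 TPM in AP T+E2, and the difference of -0.39 ± 0.14 missed the threshold (adjusted p = 0.0546). Under 3 of the 4 other scalings Abca1 was called lower in the AP, and the range over all scalings was -0.49 to -0.35. DLP Abca1 was 15.1, 22.4, 12.8 and 17.4 TPM in control and 15.1, 12.8, 12.6 and 14.3 TPM with T+E2. Urethral Abca1 was 11.5, 12.9, 12.1 and 13.8 TPM in control and 11.7, 11.9, 13.8 and 9.21 TPM with T+E2. The Abca1 groups overlapped in all 3 tissues. Nr1h2, a liver X receptor, measured 68.5, 66.6, 78.7 and 73.1 TPM in AP control and 97.1, 84.7, 71.1 and 80.8 TPM in AP T+E2 (0.21 ± 0.10, adjusted p = 0.115). DLP Nr1h2 was 48.9, 57.6, 61.8 and 58.8 TPM in control and 65.9, 58.4, 67.1 and 53.7 TPM with T+E2. Urethral Nr1h2 was 46.4, 43.5, 46.1 and 47.8 TPM in control and 32.96, 50.5, 50.8 and 42.5 TPM with T+E2. None of these Nr1h2 differences was called, and the groups overlapped.

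**Figure D3:**
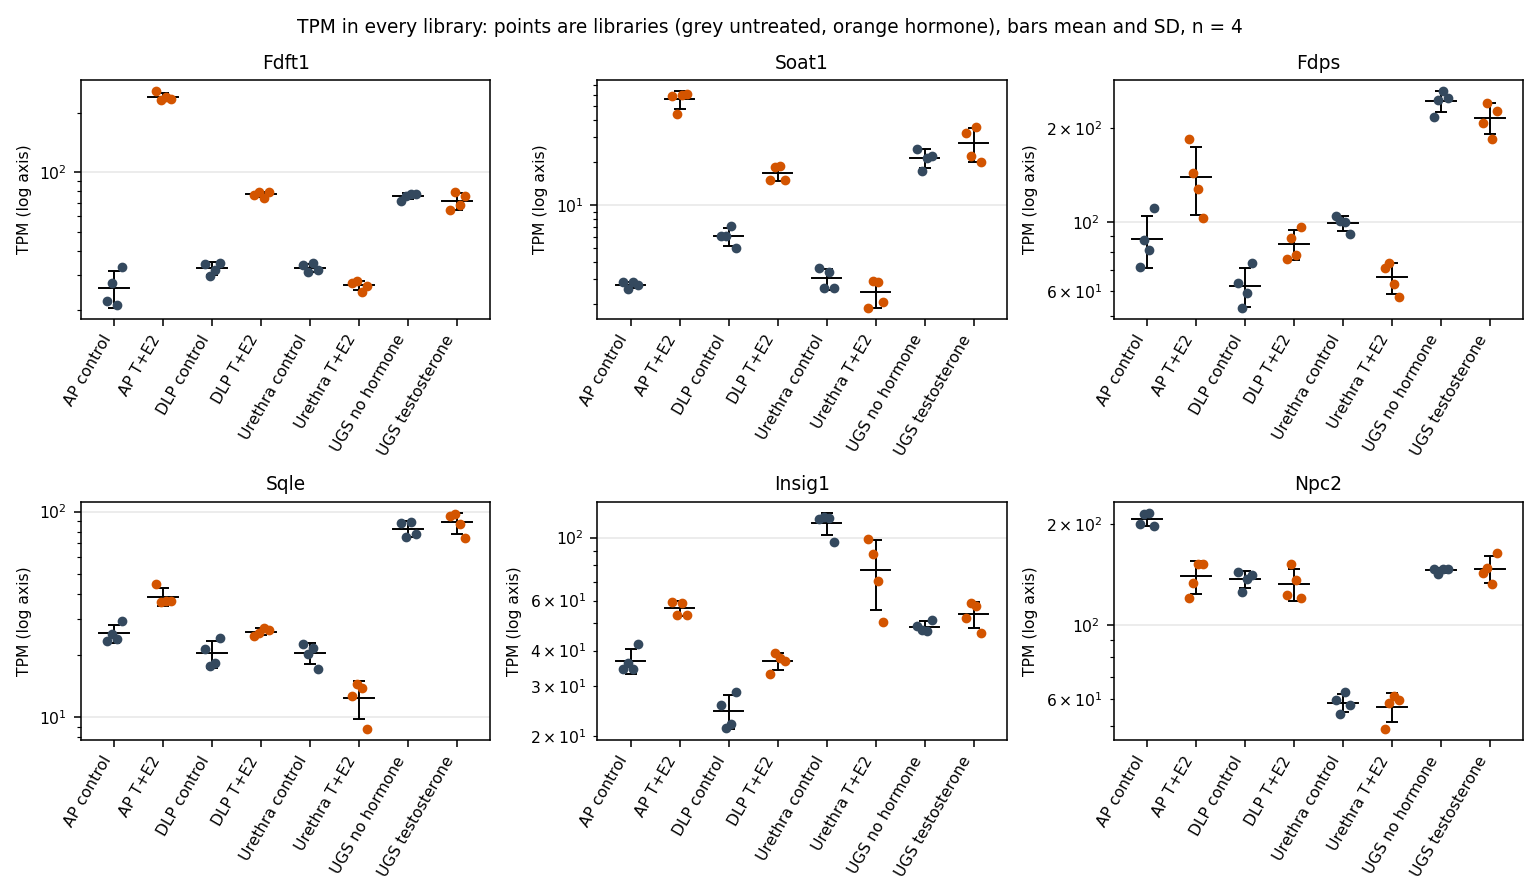
TPM on a log axis for 6 of the genes in every library of the 8 groups, with group means and SD (n = 4). Fdft1 and Soat1 in T+E2 lie wholly above the controls in both lobes, while the treated urethra lies wholly below its control for Fdft1, Fdps and Sqle, and the Npc2 groups are apart in the AP, with the treated libraries lower.

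All 9 genes that rose in the DLP also rose in the AP, which is 50% of the 18 AP rises, and Abcg1 fell in both. The 9 were Acat2, Fdps, Fdft1, Sqle, Cyp51, Nsdhl, Insig1, Stard4 and Soat1, and the fold change was larger in the AP for 8 of them, Cyp51 being the other. Leaving Fdft1 and Soat1 aside, the AP rises ran from 0.26 (Npc1) to 0.83 (Stard4) and the DLP rises from 0.34 (Sqle) to 0.57 (Insig1). The test of the difference between the lobes called 4 of the 34 genes, where it called 10.5% of 13469 (7.18% more positive in AP, 3.27% more negative). The T+E2 effect on Soat1 was more positive in the AP by 2.56 ± 0.18 (adjusted p = 1.92e-09) and that on Fdft1 by 1.97 ± 0.13 (adjusted p = 1.07e-09). It was more negative in the AP for Npc2, at -0.52 ± 0.12, and Lbr, at -0.48 ± 0.14 (adjusted p = 0.00714 and 0.0305). For the other genes no difference between lobes was called, and 5 of the 34 had an unadjusted p under 0.05. The Lbr difference was lost in 7 of 31 alternatives, and those of Soat1, Fdft1 and Npc2 in none of the 31.

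The AP calls were 19 without T+E2 libraries 17 and 18 and control 9, which were rich in seminal vesicle transcripts (16 higher, 3 lower). Quantile normalization gave 12 higher and 6 lower AP calls, and no call of a hormone effect changed sign under any scaling. In the AP, 14 of the 22 calls held in every alternative tried. The others include Cyp51, lost in 16 of 20, Sc5d, lost in 14 of 20, Abcg1, lost in 11 of 19, and Npc1, lost in 9 of 20. Single libraries whose removal ended one or more of these 4 calls were AP control 6, 7, 8 and 9 and AP T+E2 2, 3, 17 and 18. Hsd17b7 was lost without T+E2 17 or control 6 or 7. Idi1 was lost without control 6 or 8 and under median-of-ratios and quantile scaling (limma adjusted p up to 0.0691). Pmvk was lost under both of these scalings and without the AP libraries rich in seminal vesicle transcripts (limma adjusted p up to 0.123). Fdps was lost under quantile normalization (limma adjusted p = 0.059). The DLP calls were fewer when any library but control 9 was left out. There were 3, all higher and all among Fdft1, Insig1 and Soat1, without T+E2 libraries 18 and 24, which held skeletal muscle transcripts. There were 4 without control 8 or without control 10. Counts were 5 without T+E2 24 or control 7, 6 without T+E2 1, 2 or 18, and 11 without control 9. The shares of all genes called in these AP and DLP fits are not given here, so the counts do not set the members against the table. Over all alternatives the DLP calls lost were those of Nsdhl (13 of 20), Acat2, Sqle and Cyp51 (10 of 20 each), Abcg1 (8 of 19) and Fdps (6 of 20). Stard4 was lost only without both libraries holding skeletal muscle transcripts. Nsdhl, Acat2, Sqle and Cyp51 were also lost with no filter or with no trend in limma, and Nsdhl under all 4 other scalings.

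Markers of other cell types also moved in the lobes, where 34.5% of all tested genes were called in the AP and 10.7% in the DLP. Urothelial markers rose for 3 of 4 tested in the AP and 3 of 5 in the DLP, and their summed level went from 249 ± 14.8 to 1048 ± 223 TPM and from 300.1 ± 5.21 to 749 ± 76.5 TPM. The library ranges were 234 to 269 and 838 to 1334 TPM in the AP and 293 to 305 and 681 to 843 TPM in the DLP. In the AP, 1 of 9 luminal markers rose and 4 fell, 3 of 6 basal markers rose and 2 fell, 4 of 8 fibroblast markers rose and 1 fell, and 4 of 8 smooth muscle markers fell. Of 7 leukocyte markers 1 rose and 3 fell, of 7 endothelial markers 2 rose and 1 fell, 3 of 8 seminal vesicle markers rose, and 1 of 6 skeletal muscle markers fell. In the DLP, 1 of 6 basal markers and 2 of 9 skeletal muscle markers rose, and 1 of 8 fibroblast, 1 of 7 leukocyte, 1 of 9 seminal vesicle and 3 of 9 dividing cell markers fell. No adipocyte or Schwann cell marker was called by limma in any of the 4 hormone comparisons, with at most 2 adipocyte and 3 Schwann cell markers at an unadjusted p under 0.05. The part of these cell types in the sterol gene results was not tested.

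In the urethra 1 of the 20 enzymes, Fdps, fell with T+E2. Of the 34 genes, 31 had a negative fold change, where the median over all tested genes was -0.04. The share of all genes with a negative fold change was not computed. For 15 of the 34 (44.1%) every treated library was lower than every control, where 8.1% of 12985 genes did not overlap in either direction. Of those 15, 14 were among the 20 synthesis enzymes. Fdps was the only call among the 34 genes, and 19 of them had an unadjusted p under 0.05. Sc4mol was called lower under 3 of the 4 other scalings, and limma's arrayWeights called 17 members lower in a fit that called 18% of all genes. The median log2 fold change was -0.30 for the mevalonate genes and -0.40 for the squalene and sterol steps, and -0.21 for sensing and -0.11 for transport. The summed skeletal muscle markers moved the other way, as given above. Of the 10 markers 8 had a positive and 2 a negative fold change, and 1 was called (Myh1). Rescaling every library without the seminal vesicle and skeletal muscle marker genes left 4 of the 34 fold changes positive and 1 call, again Fdps. The part of muscle content beyond those genes was not tested.

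The Fdps call in the urethra was lost without T+E2 library 2 or 3, or without control library 7, 8 or 10 (adjusted p up to 0.123). The count of members called there ran from 0 to 3 over all single libraries left out. Shares of all genes called in those fits are not given here, so these counts do not set the members against the table.

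The effects in the lobes and in the urethra were told apart by the test of their difference. The AP effect was more positive than the urethral one for 19 of the 34 genes and more negative for 2, where the test called 24.4% of 13469 genes (17.4% and 7.06%). The DLP effect was more positive for 17 and more negative for none, where it called 3.64% (2.46% and 1.17%). Both tests use the same urethral libraries. The enzymes made up 15 of the 19 and 14 of the 17. Sqle differed by 1.26 ± 0.17 between AP and urethra and 1.04 ± 0.17 between DLP and urethra (adjusted p = 1.12e-05 and 9.04e-04), and Fdps by 1.22 ± 0.20 and 1.02 ± 0.20 (adjusted p = 1.13e-04 and 0.00454). For Insig1 the differences were 1.18 ± 0.20 and 1.15 ± 0.20 (adjusted p = 1.09e-04 and 0.00102). The DLP minus urethra count was 10 without DLP T+E2 libraries 18 and 24. The share of all genes called in that smaller fit is not given here, so this count does not set the members against the table. In all, 22 of the 34 genes had a positive fold change in both lobes and a negative one in the urethra. The share of all tested genes with this pattern of signs was not computed.

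**Figure D4:**
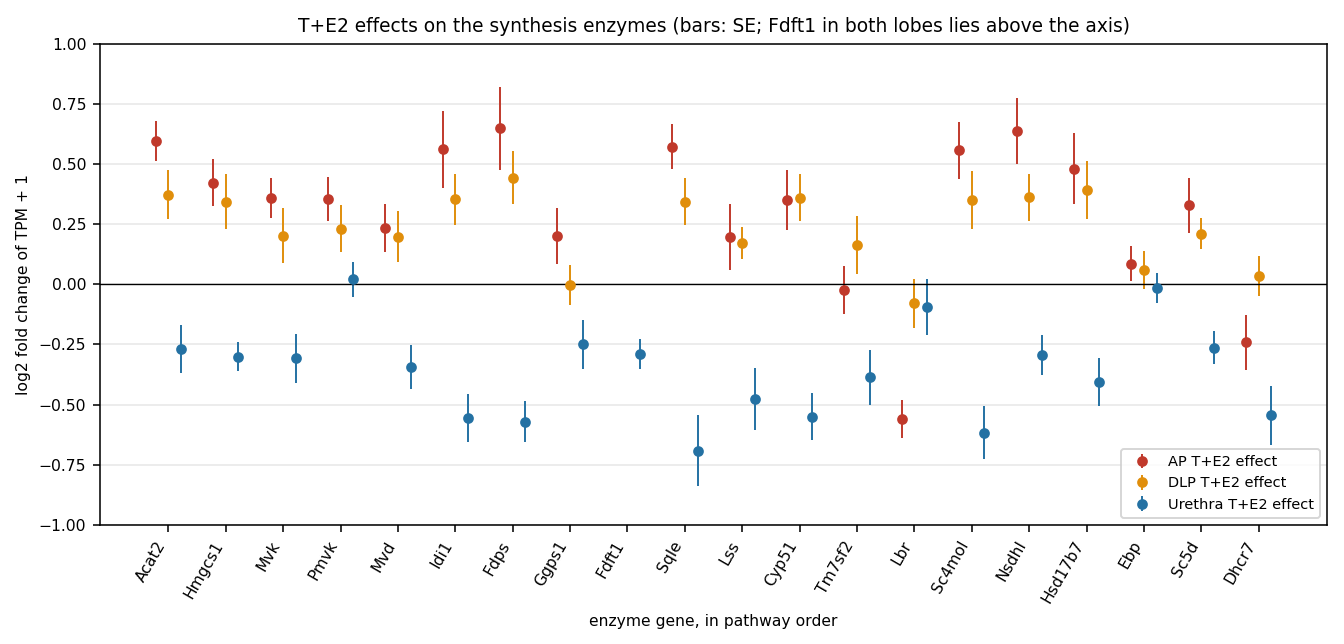
Log2 fold changes of TPM + 1 with T+E2 for the 20 synthesis enzymes in pathway order, in AP (red), DLP (orange) and urethra (blue), with standard errors; Fdft1 in AP (3.19) and DLP (1.22) lies off the axis. Blue points lie below 0 for all enzymes but Pmvk, and Lbr and Dhcr7 are the enzymes whose AP points fall clearly below 0.

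Testosterone in the cultured UGS left no member called, and the table as a whole shifted there by a median of 0.17. With limma's arrayWeights 18 members were called higher and 3 lower, in a fit that called 57.2% of 13304 genes. With the library letter as a block, members were also called, all higher, as given in the closing section. Whether the letters pair the arms is not settled. Of the 34 genes 24 were positive as deposited, and 15 after median-of-ratios rescaling and 14 after quantile normalization, which bring that median to about 0. Hmgcs1 measured 182, 154, 191 and 149 TPM without hormone and 209, 205, 226 and 159.8 TPM with testosterone. Fdps was at 217, 247, 262 and 249 TPM without hormone and 208, 241, 185 and 227 TPM with testosterone. Fdft1 measured 71.8, 76.1, 77.7 and 77.3 TPM without hormone and 63.9, 79.3, 67.8 and 75.9 TPM with testosterone. Each of these overlapped between the arms, with fold changes of 0.24 ± 0.12, -0.18 ± 0.10 and -0.08 ± 0.08. Sqle was at 88.5, 75.4, 88.8 and 77.9 TPM without hormone and 95.1, 97.7, 86.9 and 74.6 TPM with testosterone. Cyp51 measured 54.5, 48.3, 51.8 and 46.99 TPM without hormone and 56.7, 53.2, 58.4 and 46.96 TPM with testosterone. Dhcr7 was at 37.7, 33.2, 39.5 and 33.02 TPM without hormone and 39.9, 43.3, 34.7 and 33.7 TPM with testosterone. The arms overlapped for these steps too.

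Of the 7 sensing and SREBP genes only Mbtps2 did not overlap between the arms, being higher with testosterone (0.51 ± 0.14, adjusted p = 0.104). Insig1 measured 48.9, 47.4, 46.8 and 51.4 TPM without hormone and 52.01, 59.1, 57.4 and 46.2 TPM with testosterone. Insig2 was at 30.5, 24.9, 26.98 and 24.5 TPM without hormone and 29.3, 30.7, 34.2 and 29.8 TPM with testosterone. Srebf1 measured 63.3, 51.0, 53.1 and 43.9 TPM without hormone and 62.8, 62.6, 52.1 and 46.6 TPM with testosterone. The arms differed by 0.13 ± 0.09, 0.21 ± 0.10 and 0.08 ± 0.13 for these 3 genes. Srebf2 was at 94.6, 72.7, 74.95 and 60.2 TPM without hormone and 116, 103, 104 and 71.8 TPM with testosterone, and the difference of 0.38 ± 0.17 was not called (adjusted p = 0.155). Scap measured 35.8, 27.9, 30.1 and 23.1 TPM without hormone and 40.6, 38.2, 34.2 and 28.8 TPM with testosterone.

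The transport genes Stard4 and Abca1 had the largest UGS fold changes. Stard4 measured 14.7, 8.23, 10.4 and 5.78 TPM without hormone and 27.4, 22.98, 30.3 and 10.1 TPM with testosterone. The arms overlapped through library H with testosterone, and the difference was 1.10 ± 0.35 (adjusted p = 0.127). Abca1 was at 29.2, 20.7, 24.9 and 17.3 TPM without hormone and 49.6, 31.9, 52.9 and 23.5 TPM with testosterone, with a difference of 0.70 ± 0.26 (adjusted p = 0.130). Library H was the lowest of its arm for Stard4 and Abca1 in both arms. Abcg1 measured 7.30, 5.68, 6.16 and 4.92 TPM without hormone and 5.90, 5.20, 5.69 and 4.76 TPM with testosterone. Nr1h2 was at 66.3, 64.8, 66.6 and 64.7 TPM without hormone and 73.5, 74.1, 57.7 and 70.5 TPM with testosterone. Without testosterone library H, 12 members were called, all higher, in a fit that called 34.1% of 13286 genes.

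Across the 8 groups the cultured embryonic tissue stood highest for most of the genes. UGS with testosterone had the highest mean for 18 of the 34 genes and UGS without hormone for 7, and urethra T+E2 had the lowest for 16. The 20 enzymes summed to 1326 ± 72.9 TPM in UGS without hormone and 1373 ± 97.9 TPM with testosterone, beside 417 to 509 TPM as the means of the untreated adult tissues. The summed level of 10 markers of dividing cells was 671 ± 29.5 TPM in UGS without hormone and between 46.1 and 67.1 TPM as the means of the untreated adult tissues, and its part in the sterol levels was not tested. Culture, age and tissue cannot be told apart in this contrast. AP T+E2 had the highest mean for 5 genes, among them Fdft1 at 241 ± 11.7 and Soat1 at 55.6 ± 7.87 TPM, above UGS with testosterone at 71.7 ± 7.11 and 27.6 ± 7.54 TPM (SD, n = 4).

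**Figure D5:**
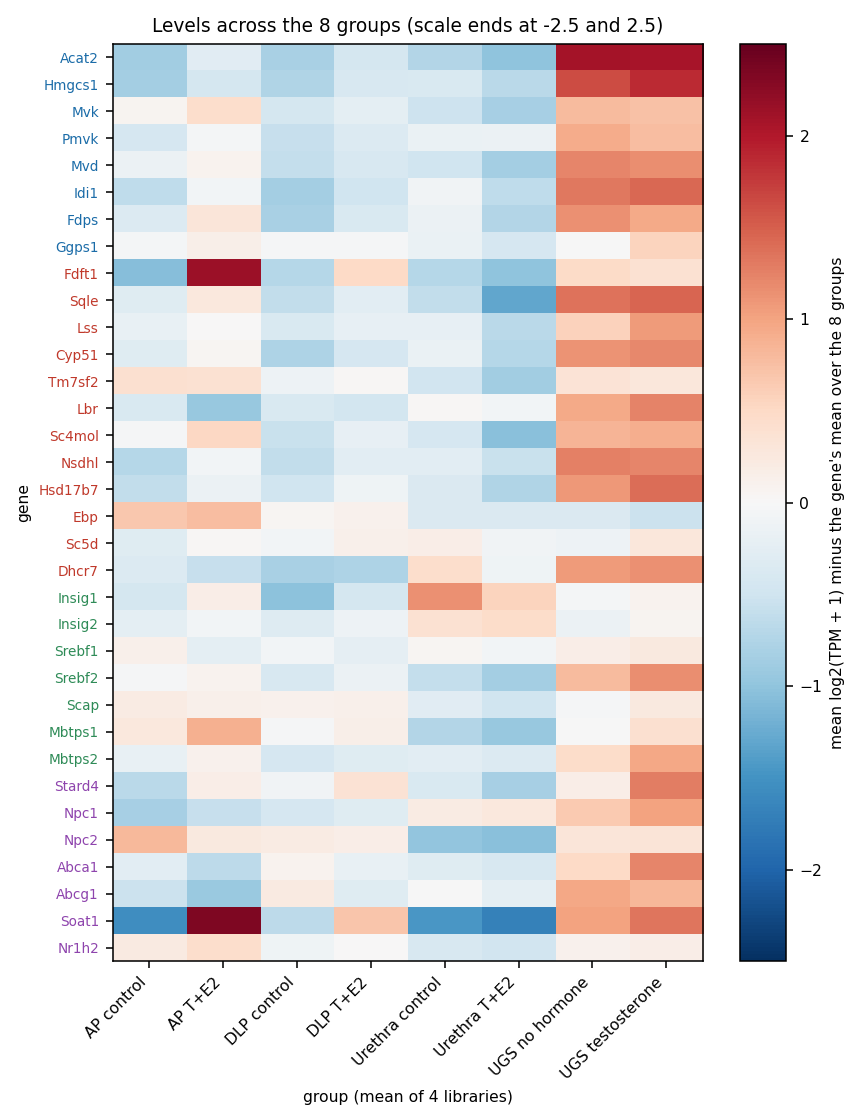
Mean log2(TPM + 1) of each of the 34 genes in the 8 groups, relative to the gene's mean over the groups, with gene names coloured by role as in the plot of fold changes. UGS with testosterone is highest for 18 genes and UGS without hormone for 7, urethra T+E2 is lowest for 16 of the 34, and Fdft1 and Soat1 are reddest in AP T+E2.

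Untreated adult tissues differed in sterol genes at shares near those of all tested genes. Of the 34 genes, 70.6% were called between AP and urethra and 58.8% between DLP and urethra. Between AP and urethra controls 11 genes were higher and 13 lower in the AP, where 74.4% of 13469 genes were called (41% higher, 33.4% lower). Between DLP and urethra 8 were higher and 12 lower in the DLP, where 62.3% were (33.4% higher, 28.9% lower). Rescaling without the seminal vesicle and skeletal muscle marker genes turned this DLP split to 14 higher and 7 lower. The median difference of all tested genes moved with it from 0.05 to 0.30, and that of the members from -0.11 to 0.15. As the share of all genes called after rescaling is not given here, this split does not set the members against the table. Groups did not overlap for 11 higher and 11 lower members between AP and urethra (69.5% of all genes) and 8 higher and 13 lower between DLP and urethra (56.6%). Insig1 had the most negative difference from urethra in both lobes. Its untreated level was 112 ± 10.4 TPM in urethra, 36.9 ± 3.65 in AP and 24.5 ± 3.35 in DLP (SD, n = 4). The AP and DLP differed from the urethra by -1.58 ± 0.14 and -2.15 ± 0.14 (adjusted p = 8.44e-10 and 7.03e-12), and the per-library values given above do not overlap between urethra and either lobe. Dhcr7 was lower than in urethra by -0.78 ± 0.11 in AP and -1.25 ± 0.11 in DLP as signed differences, and Insig2 by -0.63 ± 0.07 and -0.71 ± 0.07. Idi1 measured 13.4, 14.5, 19.03 and 16.6 TPM in DLP control and 29.7, 27.96, 23.8 and 28.3 TPM in urethra control, a difference of -0.76 ± 0.14.

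Lysosomal export genes were ordered in opposite ways. Npc2 control libraries measured 54.2, 63.1, 57.5 and 59.7 TPM in urethra against 206 ± 9.89 in AP and 137 ± 7.98 in DLP (SD, n = 4), while Npc1 measured 16.03, 16.3, 15.4 and 16.6 TPM in urethra, 7.25, 6.89, 7.81 and 7.40 TPM in AP and 9.50, 11.5, 9.11 and 10.5 TPM in DLP. Against urethra, AP differed by 1.80 ± 0.09 for Npc2 and -1.04 ± 0.07 for Npc1 (adjusted p = 2.04e-14 and 7.41e-12). Both lobes were above urethra for the SREBP protease gene Mbtps1, at 137, 128, 147 and 124 TPM in AP, 111, 104, 109.8 and 111 TPM in DLP and 63.1, 65.3, 76.95 and 59.6 TPM in urethra. Both lobes were also above urethra for Ebp, at 52.01, 51.04, 46.7 and 46.4 TPM in AP, 27.9, 32.9, 34.9 and 30.1 TPM in DLP and 22.4, 24.9, 23.9 and 22.6 TPM in urethra, in means and in every library. Tm7sf2 was at 21.7, 21.1, 26.2 and 26.5 TPM in AP, 15.1, 14.4, 19.5 and 15.9 TPM in DLP and 13.6, 13.1, 10.5 and 12.8 TPM in urethra, again lowest in urethra. The differences from urethra given for Npc2, Npc1, Mbtps1, Ebp, Tm7sf2, Insig1, Dhcr7, Insig2 and Idi1 had the same sign under all 4 other scalings tried.

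Between the untreated lobes the direction depended on scaling as well. As deposited, 15 genes were higher and 7 lower in AP than in DLP (64.7% of the 34), where 58.4% of 13469 genes were called (35.1% higher, 23.3% lower). Libraries did not overlap for 13 higher and 5 lower members (52.6% of all genes). After rescaling without the seminal vesicle and skeletal muscle marker genes, 2 were higher and 15 lower. The share of all genes called after rescaling is not given here, so these counts do not set the members against the table. In that rescaling the median difference of all tested genes moved from 0.08 to -0.21 and that of the members from 0.19 to -0.12. The genes called lower in AP by the most kept that direction in every scaling: Soat1 by -0.90 ± 0.13 and Abcg1 by -0.75 ± 0.12, and Stard4 and Npc1 were at -0.58 ± 0.14 and -0.42 ± 0.07. Ebp and Npc2 were called higher in AP in every scaling, at 0.63 ± 0.07 and 0.59 ± 0.09 as deposited.

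Genes next to the pathway gave a mixed picture with T+E2. Of all tested genes, 34.5% were called in the AP and 10.7% in the DLP. The fatty acid synthesis list had 42.1% and 26.3% called, and the electron donors 60% and 20%. Of 19 fatty acid synthesis genes, 7 rose and 1 fell in the AP and 5 rose in the DLP, and limma called none in the urethra, where 6 had an unadjusted p under 0.05. Fasn, the fatty acid synthase, rose by 1.52 ± 0.14 in AP and 0.94 ± 0.10 in DLP, Mid1ip1, an activator of acetyl-CoA carboxylase, by 2.04 ± 0.07 and 0.90 ± 0.08, and Me1, a source of NADPH, by 1.47 ± 0.07 and 0.54 ± 0.12. Fads2, a desaturase, rose by 1.22 ± 0.18 in AP and Gpam, which starts glycerolipid synthesis, by 0.41 ± 0.11 in DLP. Of 5 electron donors of the sterol enzymes, Cyb5r3 and Por rose in AP by 0.78 ± 0.08 and 0.55 ± 0.08 and Cyb5b changed by -0.37 ± 0.07, and in DLP Cyb5r3 rose by 0.43 ± 0.09. Of 15 genes of the isoprenoid branches, which use farnesyl diphosphate for other products, 2 rose and 2 fell in AP (Fnta 0.38, Zmpste24 0.23, Nus1 -0.40, Coq2 -0.18) and limma called none in DLP, where 2 had an unadjusted p under 0.05. The AP share of this list, 26.7%, was below that of all tested genes.

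Sterol uptake and transfer genes moved both ways, with 47.1% called in the AP and 11.8% in the DLP. Of all tested genes 34.5% and 10.7% were called there. Of 17 tested in the AP, 3 rose and 5 fell, the largest being Gramd1b and Gramd1a, sterol carriers at membrane contacts, at -1.07 ± 0.15 and -0.94 ± 0.27, and the lipoprotein receptor Scarb1 and the lysosomal protein Scarb2, at 0.55 ± 0.08 and 0.54 ± 0.12. Scarb1 and Scarb2 were also the 2 called in the DLP, at 0.31 ± 0.08 and 0.32 ± 0.08. Of 5 genes of oxysterol and steroid synthesis, 3 rose in the AP, with Cyp7b1, which hydroxylates oxysterols, at 1.22 ± 0.11, Fdxr at 0.42 ± 0.11 and Cyp27a1 at 0.41 ± 0.09, and Fdx1 rose in the DLP by 0.26 ± 0.07. Of 10 genes for degradation of sterol regulators at the endoplasmic reticulum, Ube2g2 rose by 0.70 ± 0.08 in AP and 0.35 ± 0.10 in DLP, Syvn1 changed by -0.60 ± 0.13 and -0.48 ± 0.10, and Erlin1 fell in AP (-0.53 ± 0.09). The oxysterol and steroid list had 60% called in AP and 20% in DLP, and the degradation list 30% and 20%. In the UGS 1.73% of all tested genes were called. There Gramd1c, Gramd1a, Cyp27a1 and Lpin1, a phosphatidate phosphatase, rose by 0.82 ± 0.15, 0.39 ± 0.07, 0.87 ± 0.15 and 0.70 ± 0.14.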

How the data were processed

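RNA-seq was run on 32 libraries, 4 in each of 8 groups, from total RNA of frozen tissue or cultured urogenital sinus, per the labels' protocols. The deposited values are TPM per gene for 13780 genes, and the sum per library ran from 994133 to 997961. No gene had a highest group mean under 4.9975 TPM, so genes low in every group are absent, and shares of all genes refer to this set. Abcg1 and Hsd17b7 were below that level in every adult group and had their highest means in the UGS groups. The authors' pipeline is known from the submitters' processing notes, which name STAR, RSEM, edgeR, FastQC and the mm9 build, without versions or roles. TPM is relative to each library's total, so a few very abundant transcripts lower all other values, and it keeps no depth. No deposited column lacked a sample, and no pair of columns was identical.

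Computed here were log2(TPM + 1) values tested with limma 3.58.1 (trend, R 4.3.3; figures with matplotlib 3.10.9). Each hormone effect was fitted on its own 8 libraries. Differences between effects and between untreated tissues used 1 fit of the 24 adult libraries. Genes with at least 1 TPM in at least 4 libraries were tested, with Benjamini-Hochberg adjustment over all of them and a threshold of 0.05. The code was tested on simulated data. The length correction used lengths for 13718 genes (99.6%).

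The members and lists were chosen with earlier results of these data known. Values per library are given for a listed set of 14 genes (Hmgcs1, Fdps, Fdft1, Sqle, Cyp51, Dhcr7, Insig1, Insig2, Srebf1, Srebf2, Scap, Abca1, Abcg1, Nr1h2) and for the 4 called genes with the largest rise and the 4 with the largest fall in each comparison. Of the other pathway lists, up to 4 called genes with the largest change are named. Alternatives were other pseudocounts, filters, scalings, limma options, each library left out, the libraries rich in seminal vesicle or skeletal muscle transcripts left out, and a replicate block. Rescaling without seminal vesicle and skeletal muscle marker genes was a further alternative, chosen after seeing the data.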

Additional observations from a re-analysis of the deposited data

Results flagged for a closer look

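The hormone effect differed between tissues by the test of the difference itself (limma, adjusted over 13469 genes). Between AP and DLP this held for 4 members (11.8%), near the 10.5% of all genes. These were Soat1 at 2.56, Fdft1 at 1.97, Npc2 at -0.52 and Lbr at -0.48 on the log2 scale. The Lbr difference was lost in 7 of 31 alternatives. Between AP and urethra the test called 21 members (61.8%) and 24.4% of all genes. The members were led by Soat1 at 4.14, Fdft1 at 3.48, Stard4 at 1.27 and Sqle at 1.26, with Npc2 at -0.53 and Lbr at -0.46. Between DLP and urethra it called 17 members (50%) and 3.64% of all genes, the members led by Soat1 at 1.58, Fdft1 at 1.51, Insig1 at 1.15 and Sqle at 1.04.

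In 17 of 272 groups of 4 libraries (6.25%), 1 library stood apart from the other 3 by Dixon's criterion, and chance gives about 1 in 20. AP T+E2 library 17 was high for Idi1 (37.26 TPM), Sqle (44.36 TPM), Hsd17b7 (4.42 TPM) and Ebp (57.55 TPM), and AP T+E2 library 18 was low for Soat1 (43.86 TPM). AP control library 8 stood apart for Pmvk (21.9 TPM) and Scap (39.81 TPM). In DLP control, library 9 stood apart for Mvd (15.06 TPM) and Sc5d (21.07 TPM) and library 7 for Insig2 (20.17 TPM), and in DLP T+E2 library 24 did for Npc1 (10.54 TPM). Urethra T+E2 library 4 was low for Hmgcs1 (31.22 TPM) and Sc5d (19.96 TPM), urethra control library 8 was low for Insig1 (96.58 TPM), and urethra control library 10 stood apart for Mbtps2 (9.48 TPM). In UGS without hormone, library H stood apart for Npc1 (16.83 TPM) and library C for Npc2 (142.01 TPM).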

How the results depend on the processing

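Over 781 results of single genes under an alternative, 649 kept their direction and call, 132 kept their direction but missed the threshold, and 0 reversed. The number of members called in the DLP, 10 as reported, was 6 with no filter on low values, 16 with arrayWeights and 3 without the 2 libraries holding skeletal muscle transcripts, a setting under which the DLP minus urethra count was 10. The single urethral call became 0 with no filter, 2 by median of ratios (also 2 when rescaled without the marker genes first), 3 by quantile normalization, 3 with the length trend removed, 4 with robust hyperparameters and 17 with arrayWeights. The UGS count of 0 became 1 with the length trend removed and 21 with arrayWeights, which called 57.2% of all genes there. The cause of these moves was not tested. A count given here or below without the share of all genes called does not set the members against the table.

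Leaving out 1 library at a time gave 16 (without control 6) to 21 (without T+E2 18) calls in AP, 4 to 11 in DLP, 0 to 3 in urethra and 0 to 12 (without testosterone library H) in UGS. The AP minus DLP differences numbered 3 to 5, AP minus urethra 20 to 23, and DLP minus urethra 12 (without urethra control 7) to 19. Untreated contrasts gave 18 to 22 (AP minus DLP), 22 to 24 (AP minus urethra) and 17 to 22 (DLP minus urethra). Quantile normalization gave 12 higher and 8 lower for untreated AP minus DLP and 11 higher and 11 lower for DLP minus urethra, and rescaling without the marker genes gave 14 and 7 for the latter.

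The replicate block gave 11 calls in UGS, all higher, with the letter as block (correlation 0.733), in a fit that called 42.7% of 13304 genes. The letters are shared by 2 pairs, whose deviations correlated at 0.082 (C) and 0.669 (H). These values do not settle whether the letters pair the UGS samples, so the main fit has no block. Deviations of equal adult numbers correlated at -0.129 to 0.227, and the numbers were not taken to pair the samples. With the number as block the 6 counts over adult tissues were 4, 22, 19, 22, 24 and 20, each within 1.5 times of that reported. TPM limits precision for low genes such as Abcg1, and the depth is unknown.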
